A study of Mus musculus with 17 samples.

Results

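The accessibility of 10 genes of the acid-base machinery of kidney intercalated cells was examined in mouse kidney by ATAC-seq, in which a transposase cuts open chromatin and the cut ends are sequenced. The genes were chosen by their known roles in intercalated cells, with no threshold on their values, though with earlier results of these data known, and they are 10 of 21938 annotated protein-coding genes. They are the transcription factors Foxi1 and Tfcp2l1, the proton pump subunits Atp6v1b1, Atp6v0d2 and Atp6v1g3, the anion exchangers Slc4a1, Slc4a9 and Slc26a4, the carbonic anhydrase Car2 and the ammonia channel Rhcg. The data are 17 lists of summits, the positions at which accessibility peaked, with 20000 cells per library and 1 library per mouse. The Ctrl group held male wild-type C57BL/6 mice given saline (n = 5). The Case group held male db/db mice, which carry the Lepr db mutation on the BKS background and become diabetic, given saline (n = 6). The Dapa group held db/db mice of the same origin (n = 6) given dapagliflozin by daily gavage of 1 mg/kg. Dapagliflozin inhibits the glucose cotransporter SGLT2. In every group dosing began at an age of 8 weeks and lasted 6 weeks. Both db/db groups differed from Ctrl in strain as well as in genotype and diabetes, and these cannot be told apart. The libraries came from whole kidney, so fewer cells of a type and less open chromatin per cell cannot be told apart either.

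Intercalated cells are scattered along the connecting tubule and collecting duct and set the final acidity of urine. Type A cells pump protons into the lumen through a vacuolar ATPase with kidney-specific subunits and return bicarbonate to blood through the exchanger AE1, while type B cells secrete bicarbonate through pendrin. Cytosolic carbonic anhydrase supplies both with protons and bicarbonate, and FOXI1 and TFCP2L1 maintain the identity of these cells. Promoters and distal elements in use lose nucleosomes, and the transposase of ATAC-seq cuts there.

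Lists differed in length, with 45444 ± 7197 summits in Ctrl, 37299 ± 8784 in Case and 40574 ± 6987 in Dapa (mean ± SD). The top 29702 summits by score were therefore kept in each, which is the size of the smallest list. The window of a gene ran from 10 kb upstream of it to its end. The measure was the percentile of the best summit in the window within its own list, where 100 is the highest score of the list and 0 means that no summit lay in the window. Summits extended by 250 bp to each side were merged over the lists into 52412 regions present in at least 2 libraries, of which 22 lay in the windows of 8 of the 10 genes. Sequencing depth is unknown.

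The sequences shown are those the results turn on. The intron region of Atp6v0d2 lacked a summit in every Case list, the intron region of Slc26a4 was found in Ctrl lists alone, and the intron of Tfcp2l1, the region upstream of Slc4a1 and the promoters of Tfcp2l1 and Car2 held the summits present in all or nearly all mice. Distal sequences are 201 bases centred on the median summit and promoter sequences are the 200 bases before the annotated start, read 5′ to 3′ on the strand of the gene from the reference genome GRCm38.p6 (mm10). Capitals mark matches, on either strand, to TGTTTAC (forkhead core), CCAGNNNNNNCCAG (CP2 and grainyhead family pair), AAGGTCA (nuclear receptor half-site), GTTAAT (HNF1 half-site), CCANNAGGNGGC (CTCF core) and, for the TATA box, the letters TATAAAA. The CTCF core and the TATA box were added after these sequences had been seen.
Atp6v0d2 intron, chr4:19901198-19901398, minus strand: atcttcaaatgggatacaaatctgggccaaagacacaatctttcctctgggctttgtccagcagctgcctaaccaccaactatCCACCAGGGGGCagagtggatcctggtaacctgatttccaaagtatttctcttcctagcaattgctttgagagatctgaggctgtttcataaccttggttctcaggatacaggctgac
Slc26a4 intron, chr12:31537984-31538184, minus strand: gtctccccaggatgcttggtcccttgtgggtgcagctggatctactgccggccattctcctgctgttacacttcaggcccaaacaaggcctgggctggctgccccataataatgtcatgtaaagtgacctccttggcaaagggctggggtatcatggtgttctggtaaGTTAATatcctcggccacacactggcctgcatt
Tfcp2l1 intron, chr1:118672303-118672503, plus strand: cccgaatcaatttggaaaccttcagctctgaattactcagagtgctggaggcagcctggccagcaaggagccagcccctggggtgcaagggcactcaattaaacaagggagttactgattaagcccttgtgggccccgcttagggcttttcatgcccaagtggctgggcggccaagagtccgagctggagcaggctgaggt
Slc4a1 upstream region, chr11:102369369-102369569, minus strand: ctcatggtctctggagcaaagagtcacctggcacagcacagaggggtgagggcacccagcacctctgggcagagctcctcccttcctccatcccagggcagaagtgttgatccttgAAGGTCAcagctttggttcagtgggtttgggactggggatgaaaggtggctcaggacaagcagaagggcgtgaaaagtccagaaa
Tfcp2l1 promoter, chr1:118627745-118627944, plus strand: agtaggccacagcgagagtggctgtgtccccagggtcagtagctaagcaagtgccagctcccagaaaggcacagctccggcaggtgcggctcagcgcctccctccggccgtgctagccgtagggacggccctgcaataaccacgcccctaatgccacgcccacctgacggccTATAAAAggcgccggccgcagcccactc
Car2 promoter, chr3:14886073-14886272, plus strand: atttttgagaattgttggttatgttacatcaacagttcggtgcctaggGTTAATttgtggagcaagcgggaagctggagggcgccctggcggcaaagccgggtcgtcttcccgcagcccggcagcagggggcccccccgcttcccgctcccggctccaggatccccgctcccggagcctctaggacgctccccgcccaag

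The Atp6v0d2 intron held a CTCF core at bases 84 to 95 of the sequence shown, and this core occurred in 3.18% of all 52412 regions at the same length. Among the 22 regions in the windows, 2 held it, the other being in Rhcg. The TATA box of the Tfcp2l1 promoter lay at bases 173 to 179 of the 200 shown, and 3.44% of the 21938 stretches of 200 bases before a protein-coding gene held one. The HNF1 half-site occurred in the Slc26a4 intron, in the Car2 promoter, in 3 of the 22 regions, in 9.51% of all regions and in 4.63% of all promoter stretches. The nuclear receptor half-site occurred in the Slc4a1 upstream region, in 5 of the 22 regions and in 5.48% of all regions. The forkhead core occurred in none of the 22 regions and in 2.24% of all regions, and the CP2 family pair in 1 of the 22 (Tfcp2l1) and in 3.50% of all regions. A match is a description of letters and not of binding. The Tfcp2l1 and Car2 promoters were 66.0% and 64.0% GC, against a median of 55.0% over all promoter stretches, and the Atp6v0d2 intron 46.8%, against 53.2% over all regions.

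Across the 17 mice the members fell into 3 levels. Tfcp2l1, Slc4a1 and Car2 had a summit in every mouse, with mean percentiles of 89.5 ± 5.93, 71.0 ± 16.2 and 66.1 ± 14.5 (SD, n = 17). Slc4a9, Atp6v0d2, Rhcg, Atp6v1b1, Slc26a4 and Foxi1 had one in 12, 9, 8, 6, 6 and 2 mice, with mean percentiles of 26.3 ± 23.1, 20.4 ± 25.0, 9.90 ± 12.8, 8.86 ± 14.6, 6.38 ± 11.1 and 0.669 ± 2.04. Atp6v1g3 had none in any mouse, in the cut or the complete lists. The mean of Tfcp2l1 exceeded that of Slc4a1 by more than either SD, as did that of Car2 over that of Slc4a9, whereas Slc4a1 and Car2 did not differ beyond their spread, nor did neighbours in the order from Slc4a9 to Foxi1. Thus 3 of 10 members had a summit in all mice, against 41.4% of all protein-coding genes, and 1 of 10 in no mouse, against 14.7%. Read as a check of the cell type label, the windows of FOXI1 and of the pump subunit G3, both defining for intercalated cells, were at or near 0 (the complete lists gave Foxi1 a summit in 7 mice), and the genes open in every mouse include Car2, which other tubule cells also use.

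**Figure D1:**
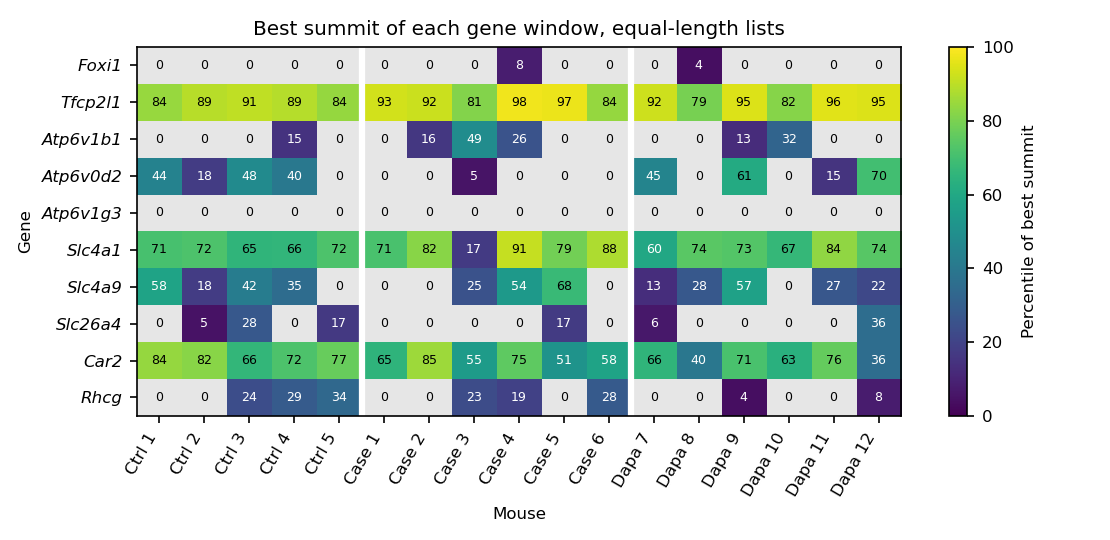
Heat map of the percentile of the best summit (colour, 0 to 100, printed in each cell) for the 10 genes (rows) in the 17 mice (columns, grouped as Ctrl, Case and Dapa), with grey for no summit. Tfcp2l1 and Car2 were filled in every mouse, Atp6v1g3 in none, and the Atp6v0d2 row was nearly empty in Case.

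The number of members with a summit per mouse averaged 6 ± 1 for Ctrl, 5 ± 1.67 for Case and 5.67 ± 1.21 for Dapa (mean ± SD). The groups overlapped, with ranges of 5 to 7, 3 to 7 and 4 to 7. The complete lists, whose length differed between groups, gave 7.80 ± 0.837, 6.17 ± 1.17 and 7.17 ± 0.753. The share of all protein-coding genes with a summit differed in the same order, at 62.8 ± 0.536%, 61.1 ± 0.860% and 61.7 ± 1.21% in the cut lists. These counts are given without a test.

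Among the transcription factors, Foxi1, which encodes the forkhead factor needed for intercalated cell fate, had a summit in 2 mice only. Case 4 had one at −7169 bp from the start with percentile 7.85 and Dapa 8 one at −1221 bp with 3.52, and no list, cut or complete, had a summit within 1 kb of its start. Tfcp2l1, which encodes a CP2 family factor of the collecting duct, held 8 of the 22 regions and 97 of the 208 summits in the windows of the 10 genes. Its promoter region (chr1:118627602-118628244, centre 46 bp upstream of the start, TATA box promoter above) was present in all 17 mice, at percentiles from 79.4 in Dapa 8 to 98.0 in Case 4. An intron region 44458 bp into the gene (chr1:118672041-118672744, sequence above) and a region in an untranslated exon 54267 bp in (chr1:118681859-118682512) were each present in 16 mice, all except Case 3, at percentiles of 62.7 to 94.5 and 58.7 to 94.6. The other 5 regions were present in 4 to 12 mice.

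The best Tfcp2l1 summit stood at 84.5, 89.3, 90.6, 88.8 and 84.1 in Ctrl 1 to 5, at 81.3, 92.6 and 98.0 in Case (lowest, median, highest) and at 79.4, 93.5 and 95.7 in Dapa. The 3 groups overlapped. The mean difference was 3.50 percentile points between Case and Ctrl (2-sided exact permutation p = 0.307, adjusted p = 0.679), −1.17 between Dapa and Case (p = 0.716, adjusted p = 1) and 2.33 between Dapa and Ctrl (p = 0.498, adjusted p = 0.790).

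**Figure D2:**
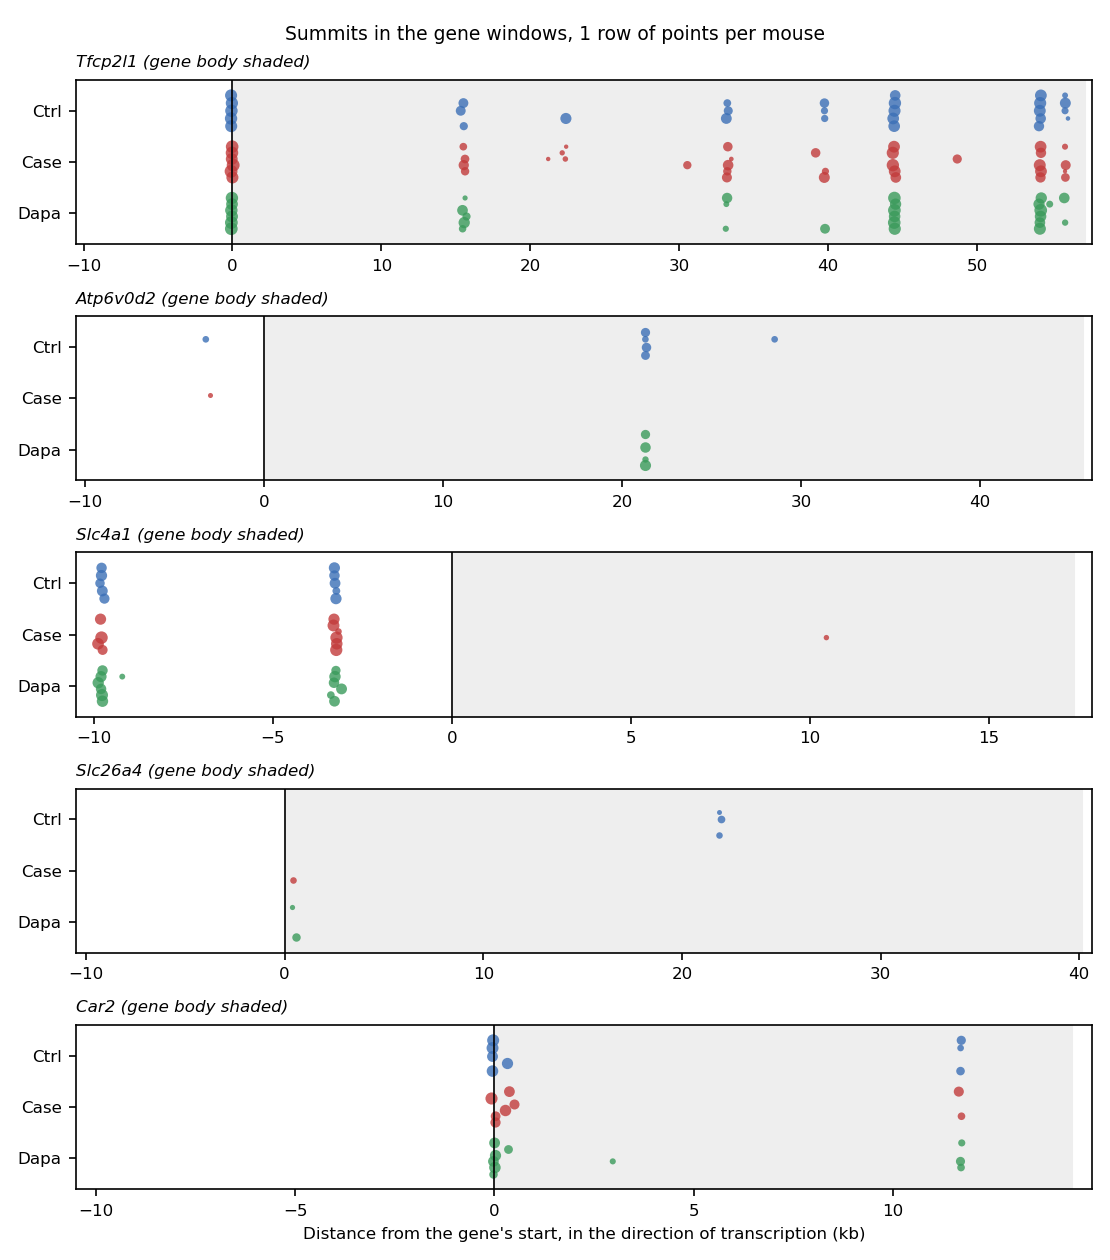
Position of each summit in the windows of 5 genes, as distance in kb from the gene's start (x axis) with 1 row of points per mouse within Ctrl (blue), Case (red) and Dapa (green), larger points for higher percentiles and the gene body shaded. The Atp6v0d2 summits 21 kb into the gene appeared in Ctrl and Dapa rows and in no Case row, while the Tfcp2l1 and Car2 starts were marked in every row.

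Among the subunits of the proton pump, Atp6v0d2 differed most between Case and Ctrl. It encodes the d2 subunit of the membrane sector, which is found in few tissues. The best summit stood at 44.4, 17.7, 47.8, 39.99 and 0 in Ctrl 1 to 5, at 0 in 5 Case mice and 5.38 in Case 3, and at 45.1, 0, 61.1, 0, 15.2 and 69.9 in Dapa 7 to 12. Case mice were thus at or near 0, whereas 4 of 5 Ctrl and 4 of 6 Dapa mice held a summit, and Ctrl 5, Dapa 8 and Dapa 10 were at 0 like most of Case. The means were 30.0 ± 20.4 in Ctrl, 0.897 ± 2.20 in Case and 31.9 ± 30.9 in Dapa (SD). The difference between Case and Ctrl was −29.1 percentile points (2-sided exact permutation p = 0.0303), and it did not pass adjustment over 14575 genes (adjusted p = 0.278). Atp6v0d2 and its intron region below could be tested between Case and Ctrl through their 4 Ctrl mice alone, so these p-values describe the counts and lend them no support. In this comparison 14.4% of all genes tested had an unadjusted p under 0.05, and among the 8 members tested it was 1, this gene. The difference between Dapa and Case was 31.0 points (exact permutation p = 0.0606, adjusted p = 1), where 4.25% of genes were under 0.05 and none of the 7 members tested. Here the gene could be tested through its 4 Dapa mice alone, so this p-value lends no support either. Without any of Ctrl 1 to 4 the exact permutation p for Case vs Ctrl was 0.0667. Both comparisons share the Case mice. Between Dapa and Ctrl the difference was 1.90 points (exact permutation p = 0.913, adjusted p = 0.982), with the sign turning to −7.44 when all summits of each list were used.

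These Atp6v0d2 summits lay at the same place. The intron region at chr4:19900995-19901557, 21307 bp from the annotated start and 15642 bp from the nearest alternative start, was present in 4 of 5 Ctrl mice and 4 of 6 Dapa mice and in 0 of 6 Case mice, with all summits within 62 bp of each other. It is the region with the CTCF core shown above, and no start of another protein-coding gene lay within 82573 bp. The complete lists gave the same 4, 0 and 4 mice, but the lists of Case 2, 3 and 4 held only 31176, 29845 and 29702 summits and could show few or no weaker ones. With the complete lists the percentile difference between Case and Ctrl was −47.8 points (exact permutation p = 0.0303, adjusted p = 0.236). That test too was possible through the 4 Ctrl mice alone, so its p-value lends no support. Between Case and Ctrl, Fisher's exact test, 2-sided, gave p = 0.0152, which did not pass adjustment over 11420 regions (adjusted p = 0.149). In that comparison 10.2% of the regions tested had a p under 0.05, and of the 7 member regions tested it was 1. Between Dapa and Case the same exact test gave p = 0.0606, the smallest that 4 of 12 mice allow, so the region was not among those tested for adjustment, of which 1.17% were under 0.05. At 14851 summits per list no Ctrl or Case mouse had a summit in the region. The percentile difference of the gene between Dapa and Case was then 10.3 points. The only Case summit in the window, in Case 3, was at −3006 bp from the start.

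**Figure D3:**
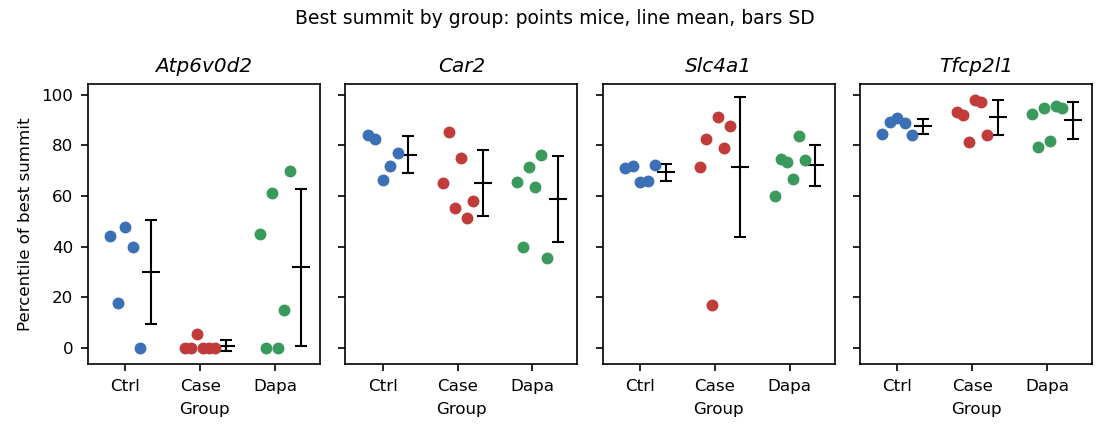
Percentile of the best summit (y axis, 0 to 100) in Ctrl, Case and Dapa for Atp6v0d2, Car2, Slc4a1 and Tfcp2l1, with 1 point per mouse, the mean as a line and the SD as bars. The Atp6v0d2 points lay at or near 0 in Case and spread from 0 to 69.9 in the other groups, and the lowest Slc4a1 point, at 16.8, was Case 3.

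Atp6v1b1 encodes the kidney and inner ear B1 subunit of the catalytic sector. Summits were found in Ctrl 4 (14.7), in Case 2, 3 and 4 (16.2, 48.7 and 25.8) and in Dapa 9 and 10 (12.8 and 32.3), and the other mice were at 0. The Ctrl and Dapa summits lay in a region at the start (chr6:83742875-83743639, 46 bp from the nearest start), which held no Case summit, and 2 of the Case summits lay in an intron region 1232 bp into the gene, which held no other. In the complete lists that intron region was found in 4 Case mice and in no Ctrl or Dapa mouse. Between Case and Ctrl too few mice in the cut lists held either region for a test to reach a p of 0.05. In the complete lists the intron region was held by Case mice alone, so these counts are a description. The mean percentile was 12.2 points higher in Case than in Ctrl (2-sided exact permutation p = 0.242, adjusted p = 0.612), and 6.93 points higher with the complete lists. In the cut lists Atp6v1b1 reached the minimum of 4 mice only with its Case mice, so this p-value lends no support. Atp6v1g3, the kidney-specific G3 subunit, had no summit from 10 kb upstream to its end at chr1:138273738-138289462.

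Of the anion exchangers, Slc4a1 was open in every mouse, but away from its own start. It encodes AE1, the basolateral exchanger of type A cells and the band 3 protein of red cells. None of the 17 lists, cut or complete, had a summit within 1 kb of any of its 5 annotated starts. An intergenic region 3266 bp upstream (chr11:102369037-102369836, sequence above) was present in 17 of 17 mice at percentiles of 16.8 to 87.5. A second region 9789 bp upstream (chr11:102375163-102376340), in an intron of the noncoding gene Bloodlinc, was present in 15 mice, all except Case 2 and Case 3, at 47.8 to 91.2. The best summit stood at 71.0, 72.0, 65.5, 66.0 and 72.1 in Ctrl 1 to 5, at 16.8, 80.5 and 91.2 in Case (lowest, median, highest) and at 59.9, 73.7 and 83.6 in Dapa. The spread in Case, 27.6 (SD), was wider than the 3.28 of Ctrl and the 8.01 of Dapa, with Case 3 far below the others. The mean differences were 2.06, 0.649 and 2.71 points for Case vs Ctrl, Dapa vs Case and Dapa vs Ctrl (2-sided exact permutation p = 0.900, 0.987 and 0.528, adjusted p = 0.985, 1 and 0.811). The values that involve Case rest on Case 3. Without it Case was higher than Ctrl by 12.96 points (exact permutation p = 0.0238, adjusted p = 0.266), while Dapa vs Case turned to −10.3 points (exact permutation p = 0.0606, adjusted p = 1). Each mouse had a promoter summit at 1 or 2 of 10 listed erythroid genes in the cut lists and at 1 to 3 in the complete lists. In the cut and complete lists 6 and 5 of the 10 had none in any mouse. The complete lists gave means of 2.4 ± 0.894 in Ctrl, 1 ± 0 in Case and 1.83 ± 0.753 in Dapa (SD). Of all genes 55.9%, 49.9% and 51.6% had one there. The part of red cells in the Slc4a1 values was not tested.

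Slc26a4 encodes pendrin, the apical exchanger of type B cells. It had a summit in 3 of 5 Ctrl mice (4.81, 27.5 and 16.8 in Ctrl 2, 3 and 5), in 1 Case mouse (17.3, Case 5) and in 2 Dapa mice (6.37 and 35.7 in Dapa 7 and 12). The Ctrl summits all lay in an intron region (chr12:31537767-31538354, 1511 bp from an alternative start, sequence above), and the Case and Dapa summits in another region 409 bp from the annotated start (chr12:31559146-31559831). The intron region was thus found in 3 of 5 Ctrl and 0 of 12 db/db mice, in the cut and in the complete lists, and in 2 of 5 and 0 of 12 with summits of score 5 or more. It entered the region list, which required 2 libraries, through Ctrl mice alone, so its presence is given as a description with no test. Of all regions tested against both db/db groups together, 9.32% had a p under 0.05. The region at the start was found in 0, 1 and 2 mice in the cut lists but in 3 Ctrl, 2 Case and 3 Dapa mice in the complete lists, so its absence in Ctrl came from the cut. Against Ctrl the mean percentile was lower by −6.94 points in Case (2-sided exact permutation p = 0.303, adjusted p = 0.677) and by −2.81 in Dapa (p = 0.762, adjusted p = 0.927). With the complete lists, where 5 Ctrl, 2 Case and 4 Dapa mice held a summit, these values were −26.0 (exact permutation p = 0.0649, adjusted p = 0.331) and −13.8 (exact permutation p = 0.294, adjusted p = 0.656). Between Case and Ctrl, Slc26a4 reached the minimum of 4 mice only with its Ctrl mice, in the cut and the complete lists. Its p-values in that comparison lend no support, and the complete lists were longest on average in Ctrl.

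Slc4a9, which encodes the basolateral exchanger AE4 of type B cells, had a summit in 4 Ctrl, 3 Case and 5 Dapa mice. The values were 58.0, 17.7, 42.1, 35.4 and 0 in Ctrl 1 to 5, 0, 12.7 and 67.9 in Case (lowest, median, highest) and 0, 24.4 and 57.3 in Dapa. The groups overlapped throughout, with differences of −6.14, 0.00842 and −6.13 points for Case vs Ctrl, Dapa vs Case and Dapa vs Ctrl (2-sided exact permutation p = 0.714, 1 and 0.628, adjusted p = 0.916, 1 and 0.864). With the complete lists they were −23.0, 13.9 and −9.13 points (exact permutation p = 0.229, 0.372 and 0.502, adjusted p = 0.564, 0.997 and 0.806). Its 2 regions were an intergenic one 2401 bp upstream of the start (chr18:36525461-36526070), in 3, 2 and 3 mice, and a coding exon 734 bp from an alternative start (chr18:36529673-36530297), in 2, 2 and 3 mice.

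Car2 encodes cytosolic carbonic anhydrase II. Its best summit lay within 488 bp of the start in every mouse, in a promoter region at chr3:14885936-14887011. The values were 84.0, 82.3, 66.4, 72.0 and 76.8 in Ctrl 1 to 5, 65.1, 85.3, 55.1, 75.1, 51.4 and 57.9 in Case 1 to 6 and 65.6, 39.7, 71.4, 63.5, 76.2 and 35.7 in Dapa 7 to 12. The lowest Ctrl value, 66.4, was above 4 of 6 Case and 4 of 6 Dapa values, and the groups overlapped. The means were 76.3 ± 7.31 in Ctrl, 65.0 ± 13.03 in Case and 58.7 ± 16.9 in Dapa (SD). Dapa was lower than Ctrl by −17.6 points (2-sided exact permutation p = 0.0346, adjusted p = 0.279), and both db/db groups together were lower by −14.5 points (exact permutation p = 0.0446, adjusted p = 0.293). In those comparisons 15% and 16.1% of all genes had a p under 0.05, and Car2 was the only member that did, of 7 and 8 tested. The p for Dapa vs Ctrl exceeded 0.05 without Ctrl 1, 2 or 5 or without Dapa 7, 8, 10 or 12, up to an exact permutation p of 0.0762. That for both db/db groups exceeded 0.05 without Ctrl 1, 2, 4 or 5, Case 1, 3, 5 or 6, or Dapa 7, 8, 10 or 12, up to an exact permutation p of 0.114. Case was lower than Ctrl by −11.3 points (exact permutation p = 0.134, adjusted p = 0.488) and Dapa than Case by −6.28 points (p = 0.478, adjusted p = 1). The difference between Case and Ctrl was −12.2 with the complete lists (exact permutation p = 0.0390, adjusted p = 0.267) and −26.8 with summits of score 5 or more (exact permutation p = 0.0130, adjusted p = 0.124). The complete lists and that score cutoff both leave lists of unequal length. With the cutoff the value for both db/db groups was −28.8 (exact permutation p = 0.00291, adjusted p = 0.0491), which passed the threshold. The share of all genes under 0.05 in these 2 settings is not given here, so these p-values are not read as a result about Car2. A second region, in a coding exon 11705 bp into the gene, was present in 3, 2 and 3 mice.

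Rhcg encodes an ammonia channel of the collecting duct. It had a summit in 3 Ctrl (23.7, 28.8 and 33.7), 3 Case (23.3, 19.2 and 28.2) and 2 Dapa mice (3.70 and 7.74). Both Dapa values were below all nonzero values of the other groups, but 2 Ctrl, 3 Case and 4 Dapa mice were at 0. Dapa was lower than Ctrl by −15.3 points (2-sided exact permutation p = 0.121, adjusted p = 0.449) and than Case by −9.87 points (p = 0.182, adjusted p = 1). With the complete lists, where 5 mice of each group held a summit, the difference between Case and Ctrl went from −5.47 to −17.2 and that between Dapa and Case to −2.67. Both db/db groups together were lower than Ctrl by −10.4 points in the cut lists (exact permutation p = 0.127, adjusted p = 0.475) and by −18.6 in the complete lists (exact permutation p = 0.0478, adjusted p = 0.283). The complete lists were longest on average in Ctrl. In them 70.3% of all genes had a summit in Ctrl, 65.0% in Case and 67.3% in Dapa. The share of all genes under 0.05 there is not given here, so these values are not read as a result about Rhcg. An intron region 136 bp from an alternative start (chr7:79594813-79595342) was present in 2, 1 and 0 mice with summits within 29 bp, and it is the other region with a CTCF core.

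**Figure D4:**
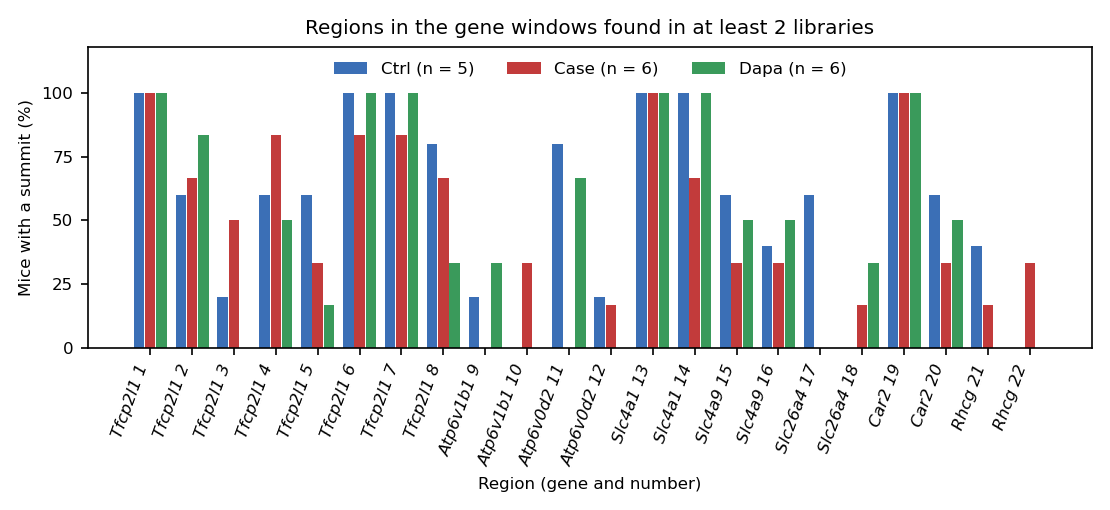
Percentage of mice of each group (y axis, 0 to 100) with a summit in each of the 22 regions of the windows (x axis, gene and region number), for Ctrl (blue, n = 5), Case (red, n = 6) and Dapa (green, n = 6). Tfcp2l1 1, Slc4a1 13 and Car2 19 stood at 100 in all groups, Atp6v0d2 11 was empty in Case, and Slc26a4 17 was found in Ctrl alone.

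Over the members as a list, the median difference in percentile was −5.81 points for Case vs Ctrl (8 tested), −1.17 for Dapa vs Case (7), −2.81 for Dapa vs Ctrl (7) and −5.51 for both db/db groups vs Ctrl (8), against −1.47, 0.227, −1.10 and −1.11 over all genes tested. In Case vs Ctrl, Atp6v0d2 (−29.1) and Slc26a4 (−6.94) reached the minimum of 4 mice only with their Ctrl mice. Atp6v1b1 (12.2) reached it only with its Case mice. The filter thus shapes this median, and no shift of the members is read from it. No member passed an adjusted p of 0.05 in any of the 4 comparisons in the exact tests of percentile, gene presence or region presence, and over all genes and regions 0% passed either. The limma package, fitted over all genes on the same percentiles, called 0.59%, 0%, 0.511% and 1.19% of genes at an adjusted p under 0.05 and no member. For gene presence by Fisher's exact test, 7.89%, 1.02%, 6.14% and 7.11% of genes tested had an unadjusted p under 0.05, and none of the 5, 3, 2 and 5 members tested did, the lowest being Atp6v0d2 for Case vs Ctrl (p = 0.0801). For regions in Dapa vs Ctrl, 8.04% of those tested were under 0.05 and none of the 6 member regions. The smallest p-values these designs allow are 0.00433, 0.00216, 0.00433 and 0.000323 for percentiles.

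The other genes of the pathway were taken from lists of 20 further intercalated cell genes and of 15 pump subunits used by all cells. Of the ubiquitous subunits, 13 of 15 had a promoter summit in all 17 mice, against 2 of the 10 members. Of the 20 intercalated cell genes, 1 had a promoter summit in every mouse and 6 had none in any, and 4 had a summit in the whole window in every mouse. In Case vs Ctrl 2 of 13 tested were higher and none lower at an unadjusted p under 0.05, and none passed adjustment. Over all genes tested 4.36% were higher and 10.0% lower, and the median difference was 12.6 points over the list and −1.47 over all genes. Oxgr1, which encodes the oxoglutarate receptor of type B cells, stood at 79.6 ± 7.75 in Ctrl, 95.3 ± 3.27 in Case and 97.3 ± 2.07 in Dapa (SD). The 2-sided exact permutation p for Case vs Ctrl was 0.00433 (adjusted p = 0.171), with summits 9762 to 10101 bp into the gene. Bsnd, the chloride channel subunit barttin, was without a summit in the Ctrl mice, with one in most Case mice (5 of 6) and, among Dapa mice, in Dapa 12. These summits lay at places from 7142 bp upstream to 3943 bp into the gene. It could be tested in Case vs Ctrl through its Case mice alone, so these counts are given with no test, although it is 1 of the 2 genes counted as higher. For Slc26a7, a basolateral exchanger of type A cells, the numbers of mice were 3 in Ctrl, 1 in Case and 0 in Dapa. It reached the minimum of 4 mice only with its 3 Ctrl mice, so these counts too are given with no test. Among the ubiquitous subunits, Atp6v0e stood at 58.7 ± 11.8 in Ctrl, 73.5 ± 5.32 in Case and 82.8 ± 7.76 in Dapa (SD), with p = 0.0346, 0.0281 and 0.00433 for Case vs Ctrl, Dapa vs Case and Dapa vs Ctrl (exact permutation tests, 2-sided), none of which passed adjustment. Its best summit lay within 135 bp of an Atp6v0e start in every mouse, but not always at the same start. Atp6v1h was 61.5 ± 7.62 in Ctrl and 39.0 ± 22.7 in Dapa (2-sided exact permutation p = 0.0433, adjusted p = 0.305). These values compare different places. The best summit lay within 221 bp of an Atp6v1h start in every Ctrl mouse, but among Dapa mice only in Dapa 11. In Dapa 8 and 9 the nearest start was that of Rgs20, and Dapa 12 had no summit. In Dapa vs Ctrl 1 of the 15 subunits was higher and 1 lower at an unadjusted p under 0.05, against 15% of all genes in either direction.

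Markers of other kidney cells were counted as promoters with a summit per mouse. Leukocyte promoters were at 0 to 1 of 10 in Ctrl, 0 to 4 in Case and 0 to 2 in Dapa mice, with 4 of the 10 at none in any mouse. Proximal tubule promoters were at 8 to 9 of 10 in Ctrl, 6 to 9 in Case and 7 to 9 in Dapa mice. Principal cell promoters were at 2 to 6, 2 to 5 and 2 to 4 of 12, and podocyte promoters at 1 to 3, 1 to 4 and 1 to 3 of 6. Case 3, the mouse without 2 of the Tfcp2l1 regions and with the low Slc4a1 value, had the most leukocyte promoters (4) and the fewest proximal tubule promoters (6). It also had the most podocyte promoters (4 of 6), and 4 of 12 principal cell promoters. Of the 20 further intercalated cell genes it had a promoter summit at 7. In their whole windows it had one at 15, the most of any mouse. Without Case 3 the Atp6v0d2 difference between Case and Ctrl was −30.0. The gene then had a summit in Ctrl mice and in no Case mouse, so this value is given with no test. The part of these cell types in the member values was not tested.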

How the data were processed

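ATAC-seq libraries of 17 mouse kidneys were analysed as deposited. With the ENCODE workflow the authors mapped reads to mm10 (Bowtie2), dropped duplicate and blacklisted ones, shifted reads for the transposase offset and called peaks with MACS2. Per the labels, DiffBind and HOMER were also used, and neither is needed here. The deposited lists give each summit of each library and its −log10 score, taken from either a p-value or a q-value, a choice not given in the sources used here. Scores grow with depth, so they were compared only by rank within a list, with ties at their mean rank. Lists were called per library, and no read counts were used.

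Genes and starts came from GENCODE vM21 (21938 protein-coding genes) and sequences from RefSeq GRCm38.p6. The highest summit on chromosome 1, at 195371867, lies within mm10. No pair of the 136 pairs of lists shared more than 0.797% of positions, so each library was counted. The samples were grouped by genotype and treatment labels, and each is taken as a separate mouse.

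Mean percentiles were compared by exact permutation tests over all relabellings (2 times the smaller tail) for genes with a summit in at least 4 mice, and presence by Fisher's exact test for genes or regions that could reach p = 0.05, with Benjamini-Hochberg adjustment over all tested. Python 3.11.15, scipy 1.17.1, R 4.3.3 and limma 3.58.1 were used. The scripts were tested on artificial data first. Alternatives were complete lists, 14851 summits, a score of at least 5, windows of 2 kb upstream or 1 kb around starts, summits of other genes' starts left out, all genes or regions tested, merging at 100 or 500 bp, a minimum of 3 libraries, limma, same-numbered mice as pairs and each mouse left out. By rule all 10 members are named, regions at a promoter, in all libraries or with an unadjusted p under 0.05, and other pathway genes with an unadjusted p under 0.05, at most 4 per list and comparison. The members and lists were chosen with earlier results of these data known.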

Additional observations from a re-analysis of the deposited data

Results flagged for a closer look

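In 7 of 29 groups of values a mouse lay far from the others of its group. A rate of 1 in 20 would give 1.45, but that rate need not hold for groups with most values at 0. No excess is read from the count. Because most members are at 0 in many mice, 5 of the 7 are a lone mouse with a summit: Foxi1 in Case 4 (percentile 7.85) and in Dapa 8 (3.52), Atp6v1b1 in Ctrl 4 (14.7), Atp6v0d2 in Case 3 (5.38) and Slc26a4 in Case 5 (17.3). Slc26a4 in Dapa 12 (35.7) stood above Dapa 7 (6.37) and 4 Dapa mice at 0. The remaining value is the best Slc4a1 summit of Case 3, at 16.8, where the other 5 Case mice lay between 71.5 and 91.2.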

How the results depend on the processing

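The counts of members that passed the adjusted threshold stayed at 0 in each comparison under each alternative run, leaving out mice included, with 1 exception. In the exact tests of Case vs Ctrl the smallest adjusted p over all genes was 0.171 for percentiles and 0.144 for gene presence. Over all regions it was 0.133, so a count of 0 in these exact tests says little about stability. With summits of score 5 or more, 1 member passed for both db/db groups vs Ctrl, Car2 at −28.8 (exact permutation test, adjusted p = 0.0491). That cutoff leaves lists of unequal length and the share of all genes that passed with it is not given here. The pass is therefore not read as a result about Car2. The Car2 difference was negative in every comparison and alternative. With each mouse left out it ran from −15.4 to −8.61 for Case vs Ctrl, −21.1 to −13.01 for Dapa vs Ctrl and −16.9 to −12.1 for both. The unadjusted p for Dapa vs Ctrl then ran from 0.0159 to 0.0762 (exact permutation tests). For Dapa vs Case the Car2 difference ran from −9.79 to −1.68 with each mouse left out and was −2.50 with all summits. The Atp6v0d2 difference between Dapa and Ctrl changed sign, to −7.44 with all summits and to −3.76 with score 5 or more, and ran from −5.69 to 8.28 with each mouse left out. For both db/db groups it turned to 5.16 with 14851 summits. The causes were not tested. With 14851 summits, which stretches percentiles, Car2 was at −22.6, −27 and −24.8 for Case vs Ctrl, Dapa vs Ctrl and both. For Case vs Ctrl the Atp6v0d2 difference ran from −36.6 to −24.6 with each mouse left out (exact permutation tests, p from 0.00952 to 0.0667, above 0.05 without any of Ctrl 1 to 4), was −47.8 with all summits, and was 0 within 1 kb of its starts and with 14851 summits, where no Ctrl or Case summit remained. Atp6v0d2 could be tested in this comparison only through its Ctrl mice, so its p-values here lend no support. The presence difference of its intron region ran from −1 to −0.75 and that of the Slc26a4 intron from −0.75 to −0.5 with each mouse left out. They were 0 with 14851 summits and −0.4 with score 5 or more, respectively. For the other 6 members tested, 48 of 465 values under alternatives lay on the opposite side of 0 from the value reported, in 16 of 22 differences, and none passed the adjusted threshold. The lowest unadjusted p among them was 0.0238, for Slc4a1 without Case 3. For same-numbered Ctrl and Case mice, 5 pairs, the correlation of deviations ran from −0.0631 to 0.0181 and 0 Ctrl mice matched best with their own number, so the numbers were not taken to pair mice. With the replicate block the Atp6v0d2 difference was −28.9 (exact sign-flip test, p = 0.125). Ctrl 5 and Case 5 were both at 0, so this is the smallest p the exact sign-flip test allows for Atp6v0d2. With the replicate block the Car2 difference was −9.90 (exact sign-flip test, p = 0.25, where 0.0625 is the smallest possible), and 0 members passed. Read depth is unknown and limits every absence.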
